A study of Mus musculus with 9 samples.

Results

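Interleukin receptor chains are the cell surface proteins, and a few secreted ones, that bind interleukins. Of the 55302 gene symbols in a count table from mouse thymic dendritic cells, 37 were taken by name: every symbol made of Il, a number and r, plus Il6st, with Il4ra, Il13ra1, Il2rg, Il15ra and Il1rn left out. RNA-seq was run on 9 libraries of dendritic cells sorted from thymi of C57BL/6 mice aged 8 weeks. There were 3 libraries each of populations named CD301b (replicates 1, 3 and 4), SIRPa (replicates 1 to 3) and XCR1 (replicates 1 to 3). No treatment or engineered allele is given for any of them, and neither the gates of the sort nor how many cells entered a library is stated in the labels. CD301b is a lectin encoded by Mgl2, SIRPa marks the conventional dendritic cells of type 2 (cDC2), and XCR1 is the chemokine receptor that marks those of type 1 (cDC1).

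Most interleukin receptors are assembled from a chain that binds 1 cytokine and a chain shared by several cytokines. The common gamma chain, gp130 (the product of Il6st), IL-12Rβ1, IL-10Rβ, IL-1RAcP (Il1rap) and IL-17RA are such shared chains. Receptors with a shared chain of the first 4 kinds signal through JAK kinases and STAT factors, whereas IL-1 family and IL-17 receptors recruit adaptor proteins that lead to NF-κB. Some chains carry no signal and act as decoys or soluble binders, among them Il1r2, Il13ra2 and Il22ra2. In the thymus, IL-7 receptor is best known from developing thymocytes, and dendritic cells there take part in deleting self-reactive thymocytes.

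Libraries held 20246092 to 25438864 counts, and the floor of 3 counts, up to which a gene at 0 may lie, equalled 0.119 to 0.150 CPM (read counts scaled to library size). The naming genes fitted the labels. CD301b libraries had 624 ± 58.1 CPM of Mgl2, SIRPa libraries 23.1 ± 5.31 and XCR1 libraries 1.82 ± 0.508 (SD, n = 3 each, as throughout). In the same order, Sirpa stood at 645 ± 53.6, 773 ± 58.6 and 12.5 ± 3.05 CPM, and Xcr1 at 0.618 ± 0.402, 9.60 ± 5.18 and 766 ± 96.7 CPM. Markers of other cells also differed. By the test given below, 13.5% of all 15417 genes were higher in CD301b than in XCR1 and 13.9% in SIRPa than in XCR1. All 11 macrophage genes of the list used were higher in CD301b and in SIRPa than in XCR1, with summed levels of 1882 to 2229 CPM in CD301b, 2666 to 3094 in SIRPa and 191 to 206 in XCR1. Of 7 monocyte genes, 5 were higher in CD301b and 4 in SIRPa than in XCR1 (sums of 716 to 895, 604 to 647 and 78.3 to 157 CPM in CD301b, SIRPa and XCR1). Of 8 plasmacytoid dendritic cell genes, 5 and 4 were higher than in XCR1 (549 to 680, 407 to 433 and 124 to 152 CPM), and of 4 tested stroma and endothelium genes 3 and 2 were (234 to 282, 216 to 267 and 55.0 to 69.2 CPM). Of 7 thymic epithelium genes, 3 were higher in CD301b than in XCR1, and 1 was higher in CD301b than in SIRPa. In SIRPa 1 of the 7 was higher than in XCR1, near the share over all genes. Their sums were 101 to 129, 47.8 to 57.3 and 36.2 to 59.5 CPM in CD301b, SIRPa and XCR1. XCR1 replicate 3 stood apart from XCR1 replicates 1 and 2. Its summed level was 157 CPM for 7 monocyte genes (78.3 and 81.3 in replicates 1 and 2), 37.4 for 9 granulocyte genes (0.0498 and 0.665), 16.6 for 8 B cell genes (2.44 and 4.70), 25.8 for 10 NK and innate lymphoid cell genes (11.4 and 6.46) and 1109 for 21 T cell genes (483 and 470). The 8 mast cell and basophil genes summed to 4.38 CPM in XCR1 replicate 3 (0.797 and 0.0949 in replicates 1 and 2). Of these 8, Mcpt8, Tpsb2, Fcer1a and Prss34 were at 0 counts in every library. Erythroid and platelet genes summed to 11.1 CPM in XCR1 replicate 3 (4.04 and 4.56). The part of other cells in the differences below was not tested.

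Where receptor chain transcripts differed from XCR1, they were higher in CD301b and in SIRPa, and 5 chains differed between CD301b and SIRPa. Of the 37 genes, 28 passed the filter on low counts and were tested, and 9 were too low. Between CD301b and SIRPa, 5 of 28 were called, where 4.28% of 15417 genes were, with 2 higher in CD301b (background 2.20%) and 3 lower (background 2.08%). In CD301b against XCR1, 12 of 28 were called (22.6% of all genes), with 12 higher (background 13.5%) and 0 lower (background 9.12%). In SIRPa against XCR1, 18 of 28 were called (24.7% of all genes), with 18 higher (background 13.9%) and 0 lower (background 10.7%). A call means an adjusted p under 0.05 in edgeR's quasi-likelihood test, adjusted over all 15417 genes of a comparison. At an unadjusted p under 0.05, edgeR and DESeq2 also found 0 lower in both comparisons with XCR1, and limma-voom found 0 in CD301b and 1 in SIRPa. The last 2 comparisons share the XCR1 libraries, so they are not independent. Genes that passed the filter only through the population where they were high were selected towards a difference, which need not be called. The shares of all genes given here are also the background for the counts by family and by list below. Fewer cells of a type and less RNA per cell cannot be told apart in such bulk libraries.

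By mean level, 12 tested chains were highest in CD301b, 15 in SIRPa and 1, Il17rd, in XCR1. XCR1 was lowest for 23, CD301b for 4 and SIRPa for 1. The median log2 fold change over the 28 was -0.10 for CD301b over SIRPa (0.01 over all genes tested), 1.29 for CD301b over XCR1 (0.05) and 1.28 for SIRPa over XCR1 (0.06). No overlap between libraries was seen in 6 higher and 8 lower chains in CD301b against SIRPa (background 10.7 and 11.4%), in 17 higher and 0 lower in CD301b against XCR1 (19.0 and 15.4%), and in 19 higher and 1 lower in SIRPa against XCR1 (22.1 and 18.1%).

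**Figure D1:**
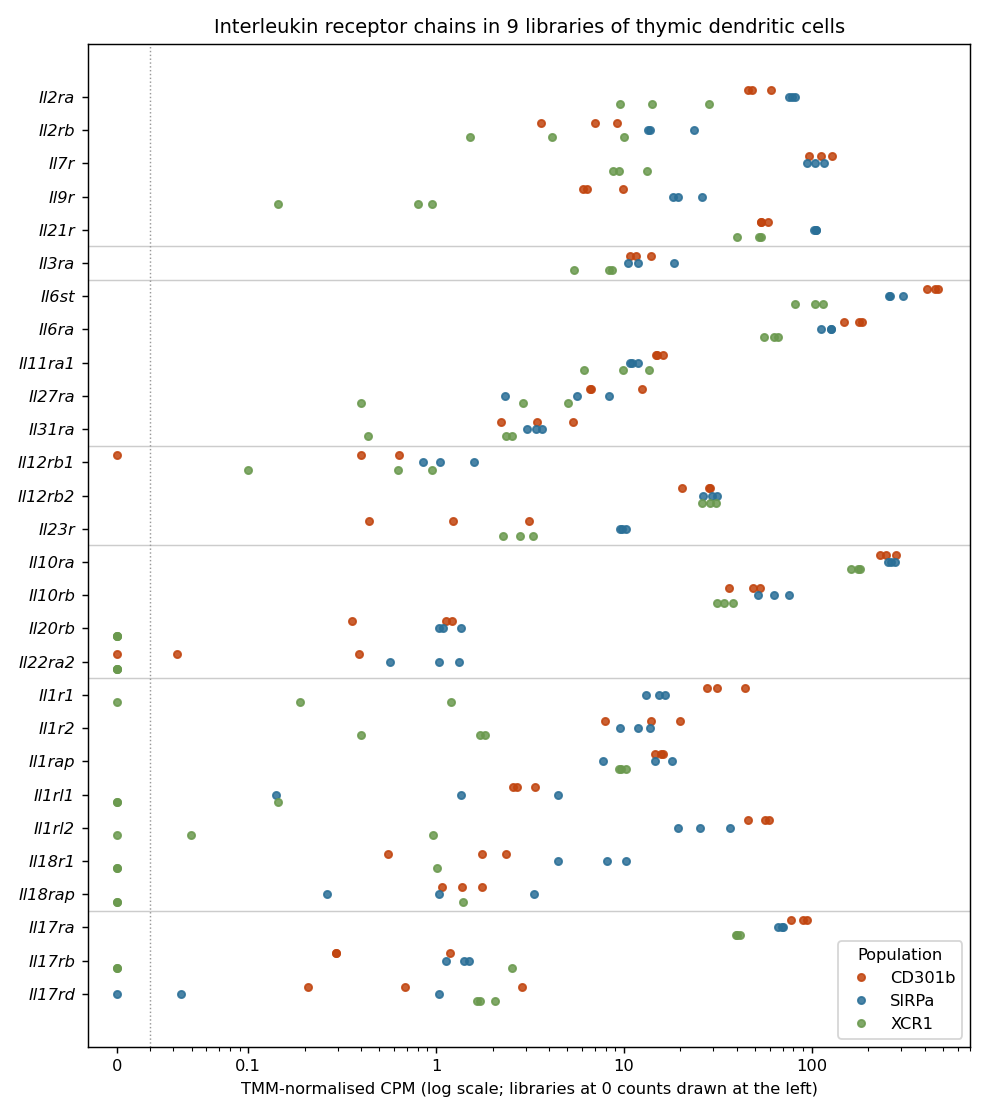
TMM-normalised CPM (log axis, with libraries at 0 counts drawn at the left) of the 28 tested chains in each of the 9 libraries, grouped by receptor family. XCR1 has the lowest mean for 23 of the 28 chains, though its points lie among those of the other populations for several of them, and Il12rb2 shows no separation at 20.4 to 31.2 CPM.

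**Figure D2:**
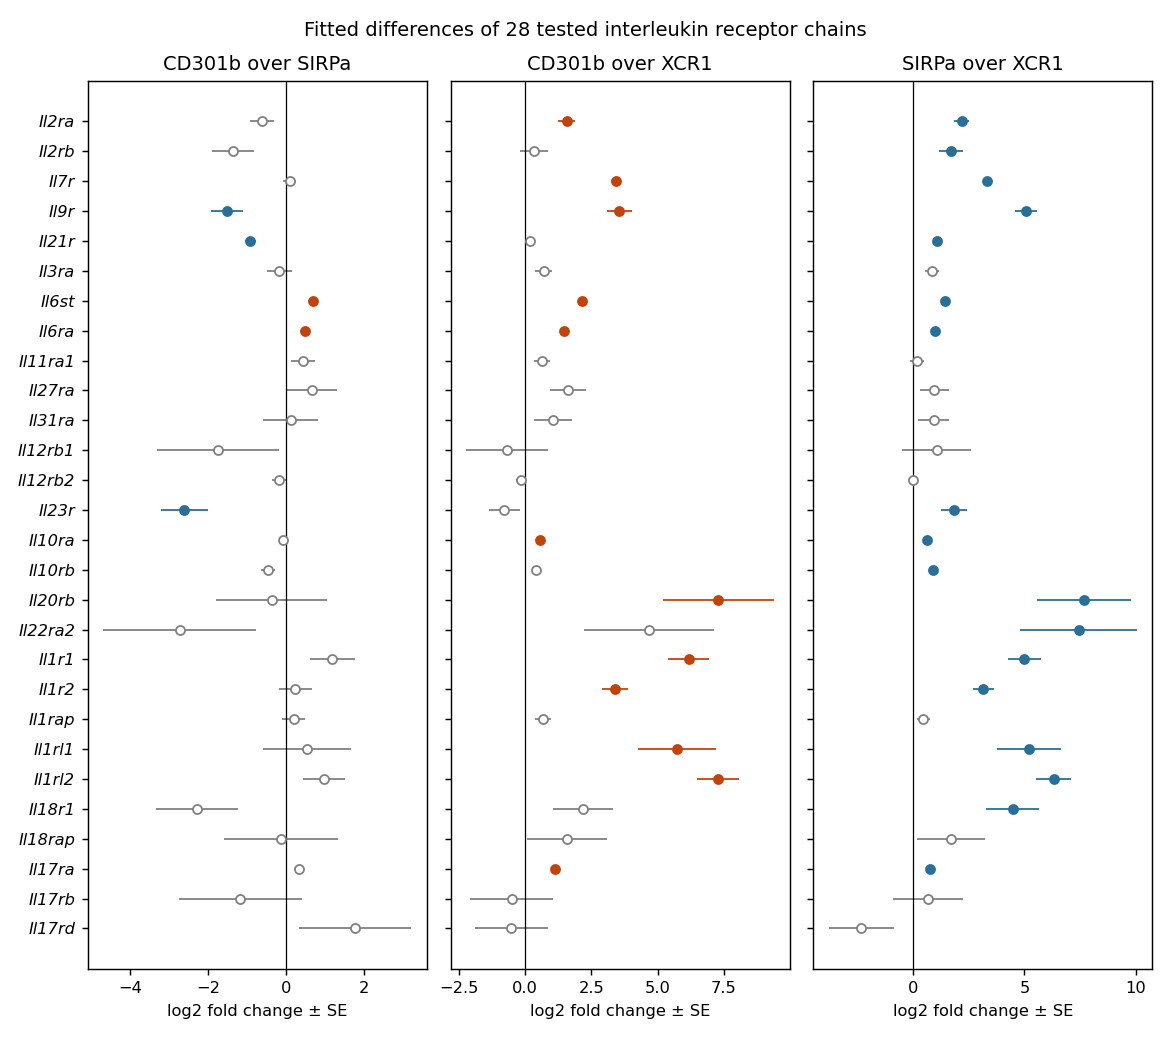
Fitted log2 fold change ± SE of the 28 tested chains for CD301b over SIRPa, CD301b over XCR1 and SIRPa over XCR1; filled points passed the test and open points did not, and the axes of the panels differ. Il20rb and Il22ra2 had 0 counts in XCR1, so their fitted values there depend on the prior count.

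Per kilobase of exon, a scale on which genes can be compared, Il10ra was the most abundant of the 37 in all 3 populations, at a mean of 72.5, 75.8 and 49.5 CPM per kb in CD301b, SIRPa and XCR1. Il6st followed in CD301b at 40.0 CPM per kb (24.8 in SIRPa, 9.05 in XCR1), while Il21r was second in SIRPa at 31.3 (16.7 in CD301b, 14.7 in XCR1). Il7r stood at 24, 22.5 and 2.25 CPM per kb in CD301b, SIRPa and XCR1. At the other end, Il13ra2, Il11ra2, Il20ra, Il22ra1, Il1rapl1 and Il1rapl2 had 0 counts in every library, where the floor allows up to 0.119 to 0.150 CPM per library.

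The chains that pair with the common gamma chain were all higher in SIRPa than in XCR1, 5 of 5 (13.9% of all genes). The Il2rb call among them was lost in several fits (below). Il9r passed the filter on low counts through the other populations, which selects towards a difference. In CD301b, 3 of 5 were higher than in XCR1 (Il2ra, Il7r and Il9r, 13.5% of all genes). Il9r and Il21r, 2 of 5, were lower in CD301b than in SIRPa (2.08% of all genes). The family's median log2 fold change was -0.91 for CD301b over SIRPa, 1.58 for CD301b over XCR1 and 2.18 for SIRPa over XCR1. The common gamma chain gene itself, Il2rg, is not among the 37 and had 152 ± 11.6, 151 ± 10.2 and 31.9 ± 7.42 CPM in CD301b, SIRPa and XCR1.

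Il7r encodes the IL-7 receptor alpha chain, which also forms the TSLP receptor with Crlf2. It lies on chromosome 15, 9505788 to 9530176 (GRCm38, as for all positions here). It had 128, 112 and 96.6 CPM in the CD301b libraries, 116, 94.1 and 104 in SIRPa, and 8.72, 9.40 and 13.4 in XCR1. The CD301b and SIRPa ranges overlapped, and both lay far above every XCR1 library. Summed over 21 thymocyte and T cell genes, levels were 615 to 1048 CPM in CD301b, 784 to 1098 in SIRPa and 470 to 1109 in XCR1, and the part of such cells in the Il7r levels was not tested. Il7r was higher by 3.41 ± 0.18 on the log2 scale in CD301b over XCR1 (± SE, adjusted p = 4.27e-12) and by 3.32 ± 0.18 in SIRPa over XCR1 (6.18e-12). Crlf2 was higher too, by 0.82 ± 0.21 in CD301b (0.00694) and 0.63 ± 0.21 in SIRPa (0.0335), at 33.9 ± 8.22, 29.8 ± 0.571 and 19.2 ± 3.04 CPM in CD301b, SIRPa and XCR1.

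Il9r, the IL-9 binding chain (chromosome 11, 32187541 to 32200279), was graded over the populations. Its level was 6.37, 9.84 and 6.06 CPM in CD301b, 19.4, 18.2 and 26.2 in SIRPa, and 0.797, 0.949 and 0.144 in XCR1. No library overlapped with one of another population. Il9r was lower in CD301b than in SIRPa by -1.52 ± 0.40 on the log2 scale (adjusted p = 0.0348), higher in CD301b than in XCR1 by 3.55 ± 0.47 (7.06e-06) and higher in SIRPa than in XCR1 by 5.06 ± 0.49 (9.29e-08). The call between CD301b and SIRPa was lost when any of those 6 libraries was left out (adjusted p = 0.0501 to 0.216). The 8 B cell genes summed to 7.67 to 8.46 CPM in CD301b, 19.97 to 29.3 in SIRPa and 2.44 to 16.6 in XCR1, with Ms4a1 at 0 counts in CD301b, and the 8 mast cell and basophil genes to 0.0398 to 2.14, 1.70 to 3.07 and 0.0949 to 4.38 CPM. Their part in the Il9r difference was not tested.

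Promoters of some of the chains that differed from XCR1 are shown with them. They are the 250 bases before a RefSeq start (GRCm38.p6), 5′ to 3′ on the gene's strand. Taken were Il6st and the 5 chains with mean ratios of 8.98 or more to XCR1 in both comparisons and 10 or more XCR1 counts. The 5 were Il7r, Il9r, Il1r1, Il1r2 and Il1rl2. The limit of 8.98 is the SIRPa ratio of Il1r2 itself, so it was taken from these values. Other called chains are not shown, such as Il1rl1 with 3 XCR1 counts. Capitals mark any match to 5 motifs searched on both strands, namely the STAT motif TTCNNNGAA, the AP-1 motif TGANTCA, the PU.1 motif GAGGAAGT, the ETS-IRF composite (GGAA, any 2 bases, GAAA) and the IRF motif (GAAA, any 2 bases, GAAA). Il7r lies at chr15:9529877-9530126 and Il9r at chr11:32200280-32200529, both on the minus strand. The capitals in Il7r are the STAT motif, and the Il9r window held none of the 5.
Il7r: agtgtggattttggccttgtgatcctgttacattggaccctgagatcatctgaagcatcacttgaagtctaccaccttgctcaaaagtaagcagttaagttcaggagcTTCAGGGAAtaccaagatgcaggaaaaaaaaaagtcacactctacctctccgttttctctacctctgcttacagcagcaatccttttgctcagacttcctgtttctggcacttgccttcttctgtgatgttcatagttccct
Il9r: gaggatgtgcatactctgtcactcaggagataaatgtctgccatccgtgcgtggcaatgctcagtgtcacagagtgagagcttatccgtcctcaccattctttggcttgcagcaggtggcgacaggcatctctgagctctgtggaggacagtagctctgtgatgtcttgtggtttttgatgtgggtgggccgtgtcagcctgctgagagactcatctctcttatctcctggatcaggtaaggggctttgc

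Il21r, the IL-21 binding chain (chromosome 7, 125603429 to 125633570), was lower in CD301b than in SIRPa. It had 58.4, 53.9 and 53.8 CPM in CD301b, 105, 105 and 102 in SIRPa, and 53.7, 52.5 and 39.8 in XCR1. SIRPa libraries thus stood together above all others. The log2 fold change was -0.91 ± 0.14 for CD301b over SIRPa (adjusted p = 0.00033) and 1.10 ± 0.14 for SIRPa over XCR1 (3.65e-06), and neither call was lost without any 1 library. For CD301b over XCR1 it was 0.19 ± 0.14 (0.401).

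Il2ra encodes CD25, which gives the IL-2 receptor its high affinity and is also a marker of regulatory T cells. It had 60.7, 48.1 and 46.0 CPM in CD301b, 75.5, 81.8 and 78.2 in SIRPa, and 14.2, 9.49 and 28.3 in XCR1. The 3 ranges did not overlap. Il2ra was higher than in XCR1 by 1.58 ± 0.32 in CD301b (adjusted p = 0.00406) and 2.18 ± 0.32 in SIRPa (0.000446), while CD301b over SIRPa gave -0.60 ± 0.31 (0.431, or 0.0374 without XCR1 replicate 3). Foxp3, the defining factor of regulatory T cells, was the 1 gene of 5 on that cell's list that was higher than in XCR1, at 8.01 ± 0.384, 5.97 ± 1.94 and 1.29 ± 0.755 CPM in CD301b, SIRPa and XCR1. The list summed to 54.2 to 84.3 CPM in CD301b, 60.4 to 80.0 in SIRPa and 40.8 to 56.6 in XCR1, and its part in the Il2ra difference was not tested.

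Il2rb is the chain shared by IL-2 and IL-15. Its libraries had 3.62, 9.21 and 6.99 CPM in CD301b, 23.7, 13.7 and 13.5 in SIRPa, and 4.14, 1.52 and 10.02 in XCR1. CD301b and XCR1 overlapped, and SIRPa lay above both. Il2rb was higher in SIRPa than in XCR1 by 1.70 ± 0.55 (adjusted p = 0.0334), a call lost without CD301b replicate 4, XCR1 replicate 1 or 2, or any SIRPa replicate (0.0523 to 0.145). Without XCR1 replicate 3 the value was 2.59. The 8 tested of 10 NK and innate lymphoid cell genes, 2 of them higher in SIRPa than in XCR1, belong to a list that summed to 47.4 to 53.4 CPM in CD301b, 44.6 to 49.6 in SIRPa and 6.46 to 25.8 in XCR1.

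Of the 5 tested chains of the gp130 family, the 2 of the IL-6 receptor passed in all 3 comparisons, highest in CD301b and lowest in XCR1. Il6st encodes gp130, the signalling chain shared by IL-6, IL-11, IL-27, LIF and oncostatin M (chromosome 13, 112464070 to 112510086). Il6st had 453, 412 and 468 CPM in CD301b, 261, 259 and 306 in SIRPa, and 81.7, 115 and 104 in XCR1. Its 3 ranges did not overlap. It was higher by 0.69 ± 0.12 in CD301b over SIRPa (adjusted p = 0.00129), by 2.15 ± 0.12 in CD301b over XCR1 (2.78e-11) and by 1.46 ± 0.12 in SIRPa over XCR1 (9.66e-09). None of these 3 calls was lost without any 1 library.

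The window before the Il6st start, chr13:112463820-112464069 on the plus strand, is shown because Il6st passed in all 3 comparisons and in every fit without 1 library. Its capitals are a reverse-strand match of the ETS-IRF composite.
Il6st: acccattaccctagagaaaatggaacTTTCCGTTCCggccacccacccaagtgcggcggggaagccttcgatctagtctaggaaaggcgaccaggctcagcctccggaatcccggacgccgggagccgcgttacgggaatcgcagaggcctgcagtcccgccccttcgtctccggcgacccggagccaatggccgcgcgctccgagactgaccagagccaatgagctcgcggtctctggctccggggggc

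Il6ra, which binds IL-6 and passes it to gp130, lies on chromosome 3, 89864059 to 89913196. It had 149, 186 and 178 CPM in CD301b, 111, 126 and 127 in SIRPa, and 63.3, 55.4 and 66.2 in XCR1, again with no overlap. The differences were smaller than for Il6st. They were 0.49 ± 0.12 in CD301b over SIRPa (adjusted p = 0.0208), 1.47 ± 0.12 in CD301b over XCR1 (1.01e-08) and 0.98 ± 0.12 in SIRPa over XCR1 (3.09e-06). The first was lost without CD301b replicate 3 or 4 or without any SIRPa replicate (0.0523 to 0.144). Of Il6ra's 8642 exonic bases, 242 lie opposite Gm42809, which had under 1 CPM on average in each population.

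The other chains of the gp130 family among the 37 had lower levels and did not pass. Il11ra1, the IL-11 binding chain, had 15.3 ± 0.729, 11.3 ± 0.545 and 9.87 ± 3.76 CPM in CD301b, SIRPa and XCR1. Its near copy Il11ra2 had 0 counts, and the labels do not say how reads that match both genes were assigned. Il27ra, the IL-27 chain, stood at 8.61 ± 3.42, 5.45 ± 3.03 and 2.78 ± 2.33 CPM, and Il31ra, the IL-31 chain, at 3.69 ± 1.59, 3.38 ± 0.314 and 1.78 ± 1.17 CPM in CD301b, SIRPa and XCR1. Without XCR1 replicate 3, CD301b over XCR1 passed for Il11ra1 (adjusted p = 0.0482) and Il27ra (0.0222). Lifr, the LIF receptor chain that pairs with gp130 and is not among the 37, followed the order of Il6st with a wider span, at 112 ± 19.0, 70.6 ± 8.27 and 1.91 ± 0.749 CPM in CD301b, SIRPa and XCR1. It was higher by 0.67 ± 0.19 in CD301b over SIRPa (adjusted p = 0.0442), 5.87 ± 0.24 in CD301b over XCR1 (2.28e-13) and 5.20 ± 0.24 in SIRPa over XCR1 (9.93e-13). Osmr, the oncostatin M chain, had 0 counts in CD301b, 7 in SIRPa and 0 in XCR1.

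Among the IL-12 and IL-23 receptors, Il23r alone passed the test. Il23r, the chain that binds IL-23 (chromosome 6, 67422932 to 67491855), had 1.23, 3.14 and 0.440 CPM in CD301b, 10.3, 9.57 and 9.79 in SIRPa, and 3.29, 2.80 and 2.26 in XCR1. SIRPa was set apart from both, while CD301b and XCR1 overlapped. Its log2 fold change was -2.61 ± 0.60 for CD301b over SIRPa (adjusted p = 0.0130) and 1.83 ± 0.58 for SIRPa over XCR1 (0.0256). The first was lost without CD301b replicate 1, SIRPa replicate 1 or SIRPa replicate 3 (0.0515 to 0.0718) and was -3.54 without CD301b replicate 3. The second was lost without any SIRPa replicate or without XCR1 replicate 2 or 3 (0.0558 to 0.0907).

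Il12rb2, the IL-12 binding chain next to Il23r on the same strand, 46743 bases away (chromosome 6, 67291318 to 67376188), passed in no comparison. It had 28.6, 20.4 and 28.5 CPM in CD301b, 29.5, 31.2 and 26.4 in SIRPa, and 30.9, 28.9 and 26.2 in XCR1. All 3 ranges overlapped. The log2 fold changes were -0.17 ± 0.20, -0.15 ± 0.20 and 0.02 ± 0.20 for CD301b over SIRPa, CD301b over XCR1 and SIRPa over XCR1 (adjusted p = 0.831, 0.681 and 0.965). Of its 3794 exonic bases, 1519 lie opposite exons of Serbp1, at 528 ± 48.9, 496 ± 7.37 and 570 ± 16.4 CPM in CD301b, SIRPa and XCR1. The strand setting of the counting is not given, so reads of the 2 genes cannot be told apart over that stretch. Il12rb1, the chain shared by both receptors, was near the floor at 0.344 ± 0.321, 1.17 ± 0.388 and 0.558 ± 0.429 CPM.

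IL-10 family chains were led by the IL-10 receptor itself. Of 4 tested, 4 were higher in SIRPa than in XCR1 (13.9% of all genes). Il10ra and Il20rb, 2 of the 4, were higher in CD301b than in XCR1 (13.5%). Il20rb and Il22ra2 had 0 counts in XCR1 and passed the filter through other populations, Il22ra2 through SIRPa alone. They were thus selected towards a difference, and these counts are no measure of the family against all genes. Il10ra, the IL-10 binding chain (chromosome 9, 45253837 to 45269149), had 250, 282 and 230 CPM in CD301b, 263, 254 and 279 in SIRPa, and 180, 177 and 163 in XCR1. CD301b and SIRPa overlapped, and XCR1 lay below both. Il10ra was higher than in XCR1 by 0.55 ± 0.10 in CD301b (adjusted p = 0.000455) and 0.61 ± 0.11 in SIRPa (0.000135). Il10rb, the chain that IL-10 shares with IL-22 and type III interferon, stood at 46.2 ± 8.88, 63.5 ± 11.7 and 34.6 ± 3.38 CPM in CD301b, SIRPa and XCR1. It was higher in SIRPa than in XCR1 by 0.88 ± 0.18 (0.000820) and did not pass in CD301b over XCR1, at 0.42 ± 0.18 (0.102, or 0.0296 without CD301b replicate 4). Of its 3808 exonic bases, 569 are shared with Gm21970 on the same strand. Gm21970 had 0 counts, and the labels do not say how reads over that stretch were assigned. Reads of Il10rb may be missing there.

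The other IL-10 family chains were near the floor. Il20rb, a chain of the IL-20 receptors (chromosome 9, 100457719 to 100486788), had 0.358, 1.21 and 1.12 CPM in CD301b, 1.09, 1.36 and 1.04 in SIRPa, and 0 counts in every XCR1 library. Against a floor of 3 counts over the XCR1 group, its mean level was at least 18.6-fold higher in CD301b (adjusted p = 0.0161) and at least 23.96-fold higher in SIRPa (0.0112). Il22ra2, the secreted IL-22 binding protein, had 9 counts over the CD301b libraries, 63 over SIRPa and 0 over XCR1. Its level was at least 20.1-fold higher in SIRPa than in XCR1 (0.0459), a call lost in 7 of the 9 fits that left out 1 library, namely CD301b replicate 3 or any SIRPa or XCR1 replicate (0.0601 to 0.132). Il20ra and Il22ra1, which complete the IL-20 and IL-22 receptors, were at 0.

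The IL-1 family held the largest ratios to XCR1 among the chains with counts in XCR1. Of its 9 chains 7 were tested. Of these, 4 were higher in CD301b than in XCR1 (13.5% of all genes) and 5 in SIRPa than in XCR1 (13.9%). Il1r1, Il1rl1, Il1rl2 and Il18r1 passed the filter on low counts through the other populations, which selects towards a difference. Between CD301b and SIRPa, edgeR called 0 of 7 (1 at an unadjusted p under 0.05), DESeq2 0 (1 unadjusted) and limma-voom 3. The median log2 fold change of the 7 was 0.24 for CD301b over SIRPa, 3.40 for CD301b over XCR1 and 4.47 for SIRPa over XCR1. The neuronal chains Il1rapl1 and Il1rapl2 were at 0. Of the 9 chains, 6 are neighbours on chromosome 1 in the order Il1r2, Il1r1, Il1rl2, Il1rl1, Il18r1 and Il18rap, all on the same strand, with no other coding gene between them and with gaps of 99848, 7352, 62007, 136 and 14507 bases.

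Il1r1 is the signalling IL-1 receptor (chromosome 1, 40225080 to 40317257). It had 27.6, 44.0 and 31.3 CPM in CD301b, 15.5, 13.1 and 16.5 in SIRPa, and 0, 0.190 and 1.20 in XCR1. No 2 populations overlapped. Il1r1 was higher by 6.18 ± 0.77 in CD301b over XCR1 (adjusted p = 0.000279) and 4.99 ± 0.75 in SIRPa over XCR1 (0.000893). In means these were ratios of 73.8 and 32.3. XCR1 replicate 3 held 25 of the 29 XCR1 counts, and without it the ratios were 353 (95% interval 138 to 1297) and 155 (59.9 to 566). CD301b over SIRPa gave 1.19 ± 0.57 (0.407), with adjusted p = 0.0127 and 0.0448 in the 2 fits without XCR1 replicate 3 or 1.

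Il1rl2 is the IL-36 receptor chain (chromosome 1, 40324610 to 40367562). Its libraries had 45.9, 56.3 and 59.3 CPM in CD301b, 19.4, 25.4 and 36.9 in SIRPa, and 0.0498, 0 and 0.964 in XCR1. Every CD301b library lay above every SIRPa library and every SIRPa library above XCR1. Il1rl2 was higher by 7.29 ± 0.80 in CD301b over XCR1 (adjusted p = 0.000310) and 6.30 ± 0.79 in SIRPa over XCR1 (0.000612), ratios of 159 and 80.6. These values were 6.70 and 5.72 without XCR1 replicate 2. XCR1 replicate 3 held 20 of 21 counts, and over the 1 count that remained without it the ratios were 2215 (394 to 86840) and 1120 (201 to 44200). CD301b over SIRPa gave 0.98 ± 0.54 (0.508, or 0.0109 without XCR1 replicate 3).

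Il1r2, the decoy that binds IL-1 without signalling (chromosome 1, 40074079 to 40125231), differed from XCR1 by less. It had 7.96, 13.95 and 19.99 CPM in CD301b, 12.0, 9.57 and 13.8 in SIRPa, and 0.399, 1.71 and 1.83 in XCR1. CD301b and SIRPa overlapped and XCR1 lay below. The log2 fold change was 3.40 ± 0.48 for CD301b over XCR1 (adjusted p = 1.69e-05) and 3.16 ± 0.48 for SIRPa over XCR1 (3.62e-05). Ratios of 10.6 and 8.98 became 13.1 and 11.0 without XCR1 replicate 3, which held 38 of 82 counts.

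Il1rl1, the IL-33 receptor ST2 (chromosome 1, 40429570 to 40465415), was low. It had 2.71, 2.56 and 3.37 CPM in CD301b, 4.44, 1.36 and 0.141 in SIRPa, and 0, 0 and 0.145 in XCR1. SIRPa spanned a wide range that overlapped with XCR1, while CD301b lay above XCR1. With 3 counts in XCR1, all in replicate 3, the ratio to XCR1 was 58.8 in CD301b (95% interval 19.8 to 288, adjusted p = 0.00665) and 40.5 in SIRPa (13.6 to 199, adjusted p = 0.0107). Without that library it was at least 39.5 and 27.2. The SIRPa call was lost without SIRPa replicate 1 (0.111), where the log2 value was 3.79, against 5.20 with it, and was also lost with limma-voom (0.1005).

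Il18r1, the IL-18 binding chain (chromosome 1, 40465552 to 40500854), ran the other way between CD301b and SIRPa. It had 0.557, 2.35 and 1.76 CPM in CD301b, 10.2, 4.48 and 8.14 in SIRPa, and 0, 0 and 1.012 in XCR1. SIRPa lay above both others, while CD301b and XCR1 overlapped. Il18r1 was higher in SIRPa than in XCR1 by 4.47 ± 1.20 (adjusted p = 0.0110), and CD301b over SIRPa gave -2.29 ± 1.06 (0.339). All 21 XCR1 counts came from replicate 3. Without it, Il18r1 was at least 104-fold higher in SIRPa and at least 21.3-fold higher in CD301b than in XCR1, and CD301b over XCR1 passed (0.000375). Il18rap, its signalling partner, stood at 1.40 ± 0.344, 1.54 ± 1.58 and 0.466 ± 0.807 CPM in CD301b, SIRPa and XCR1. Its 29 XCR1 counts also came from replicate 3, and without it both comparisons with XCR1 passed (0.0166 for CD301b and 0.0137 for SIRPa). That library had higher sums of monocyte, granulocyte, B cell, T cell, NK, mast cell and erythroid genes, whose part in these counts was not tested.

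Il1rap, the accessory chain that IL-1, IL-33 and IL-36 receptors share, had the smallest log2 fold changes against XCR1 of the 7 tested. It lies on chromosome 16, 26581704 to 26730117, apart from the others. Its level was 15.5 ± 0.801, 13.5 ± 5.23 and 9.77 ± 0.476 CPM in CD301b, SIRPa and XCR1, and no comparison passed (adjusted p = 0.890 for CD301b over SIRPa, 0.130 for CD301b over XCR1 and 0.313 for SIRPa over XCR1). Of its 11360 exonic bases, 552 lie opposite Gm20319, which had 0 counts.

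**Figure D3:**
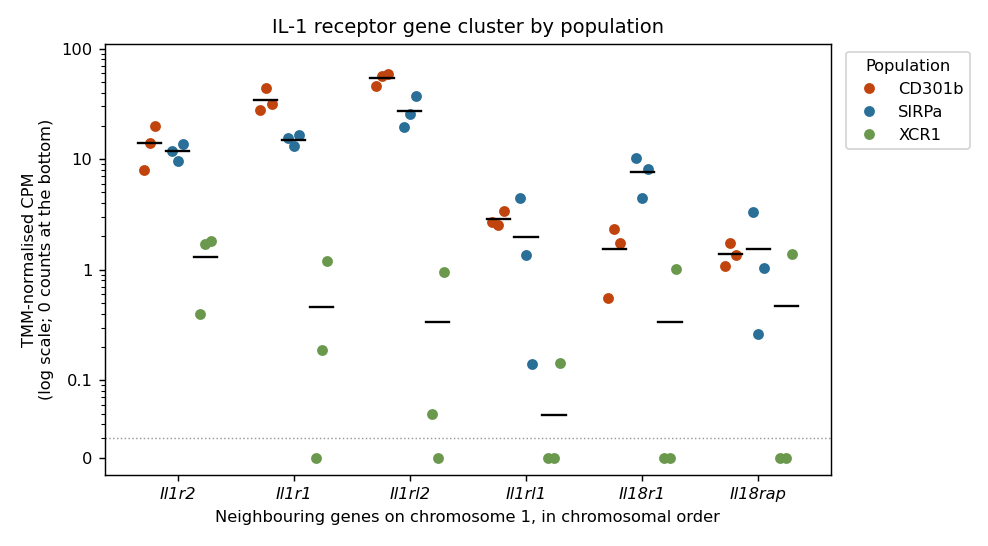
TMM-normalised CPM (log axis, 0 counts at the bottom) of the 6 neighbouring IL-1 receptor family genes in each library, with a line at each population mean. XCR1 points lie 1 or more decades below for Il1r1 and Il1rl2, and for 5 of the 6 genes the highest XCR1 point by far is replicate 3, as with 25 of 29 counts of Il1r1.

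The promoter windows of Il1r2, Il1r1 and Il1rl2, the 3 neighbours that meet the limits above in both comparisons, follow, all on the plus strand. They are chr1:40085843-40086092 for Il1r2, chr1:40224830-40225079 and chr1:40266336-40266585 for the first and the second start of Il1r1, and chr1:40324339-40324588 for Il1rl2. The capitals in Il1r2 are the STAT motif, and the other windows held none of the 5 motifs.
Il1r2: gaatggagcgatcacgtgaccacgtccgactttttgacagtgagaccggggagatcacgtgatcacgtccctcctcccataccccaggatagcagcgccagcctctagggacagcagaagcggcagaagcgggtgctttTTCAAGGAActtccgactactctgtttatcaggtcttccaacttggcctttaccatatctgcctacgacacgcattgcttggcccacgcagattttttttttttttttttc
Il1r1 first start: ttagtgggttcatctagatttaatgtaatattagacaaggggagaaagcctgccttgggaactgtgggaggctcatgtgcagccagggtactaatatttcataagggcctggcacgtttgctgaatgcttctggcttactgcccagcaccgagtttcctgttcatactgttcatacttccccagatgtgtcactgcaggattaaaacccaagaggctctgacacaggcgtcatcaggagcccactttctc
Il1r1 second start: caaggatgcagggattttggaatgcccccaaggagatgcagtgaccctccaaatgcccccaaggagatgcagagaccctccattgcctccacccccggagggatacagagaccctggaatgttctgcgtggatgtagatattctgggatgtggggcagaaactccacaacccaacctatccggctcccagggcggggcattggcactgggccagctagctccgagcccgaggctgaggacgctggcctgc
Il1rl2: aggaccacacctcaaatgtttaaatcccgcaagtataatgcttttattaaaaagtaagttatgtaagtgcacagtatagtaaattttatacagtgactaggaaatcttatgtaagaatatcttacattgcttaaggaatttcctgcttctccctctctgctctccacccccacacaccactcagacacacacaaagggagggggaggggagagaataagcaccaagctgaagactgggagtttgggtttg

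The most abundant IL-17 receptor transcript was Il17ra, the chain shared by the IL-17 cytokines (chromosome 6, 120463247 to 120487559). It had 78.0, 94.4 and 89.7 CPM in CD301b, 66.5, 70.6 and 69.1 in SIRPa, and 39.6, 40.0 and 41.7 in XCR1. The populations did not overlap. Il17ra was higher than in XCR1 by 1.11 ± 0.13 in CD301b (adjusted p = 1.65e-06) and 0.76 ± 0.13 in SIRPa (0.000157), and CD301b over SIRPa gave 0.35 ± 0.13 (0.184). Il17rb, the IL-25 chain, had 0.593 ± 0.520, 1.35 ± 0.192 and 0.851 ± 1.47 CPM in CD301b, SIRPa and XCR1. All 53 of its XCR1 counts came from replicate 3, without which it was at least 18.5-fold higher in SIRPa than in XCR1 (0.0293). Il17rd, an inhibitor of receptor signalling also named Sef, stood at 1.25 ± 1.42, 0.361 ± 0.588 and 1.81 ± 0.230 CPM. SIRPa over XCR1 gave -2.31 ± 1.46 (0.300), or an adjusted p of 0.0402, again lower, without SIRPa replicate 1, where the other 2 SIRPa libraries hold 1 count in all. Il17rc, the IL-17A partner chain, had 1 count in all 9 libraries, and Il17re, the IL-17C chain, had 11 counts in CD301b, 19 in SIRPa and 0 in XCR1.

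Of the chains that use the common beta chain, Il3ra binds IL-3 and lies on chromosome 14, 14346275 to 14356011. It had 11.7, 13.9 and 10.7 CPM in CD301b, 10.5, 11.9 and 18.4 in SIRPa, and 8.67, 5.41 and 8.38 in XCR1. Both CD301b and SIRPa lay above XCR1 without overlap, yet neither comparison passed (adjusted p = 0.135 and 0.0548). Its partner Csf2rb stood at 355 ± 25.1, 396 ± 8.14 and 330 ± 20.3 CPM in CD301b, SIRPa and XCR1. The related beta chain Csf2rb2 stood at 155 ± 15.6, 200 ± 18.6 and 132 ± 17.4 CPM. Both were higher in SIRPa than in XCR1, Csf2rb by 0.26 ± 0.10 (adjusted p = 0.0479) and Csf2rb2 by 0.59 ± 0.12 (0.000833). Neither passed in the other comparisons. Il5ra, the IL-5 chain, had 4 counts in CD301b, 39 in SIRPa, mostly in replicate 1 at 1.56 CPM, and 0 in XCR1, and the IL-13 decoy Il13ra2 had 0.

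**Figure D4:**
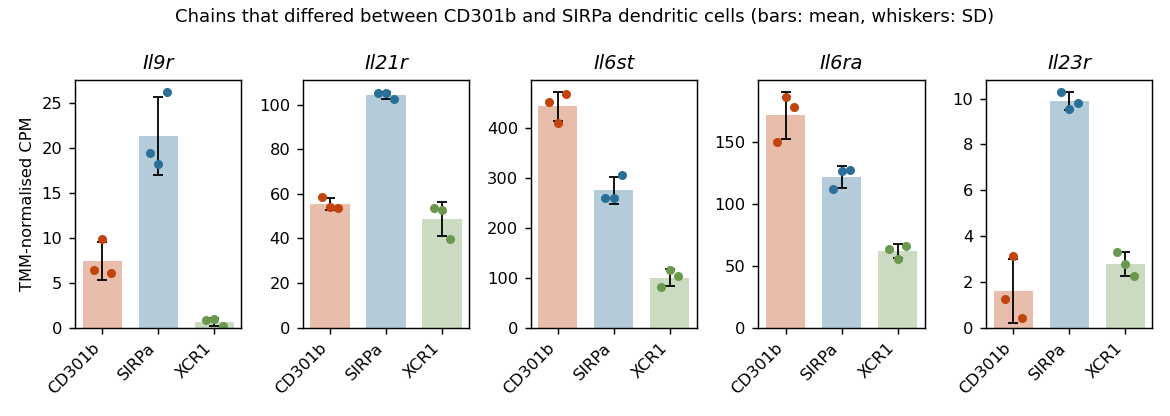
TMM-normalised CPM of the 5 chains that passed between CD301b and SIRPa, with points for libraries, bars for means and whiskers for SD (n = 3). Il6st and Il6ra are highest in CD301b, whereas Il9r, Il21r and Il23r are highest in SIRPa.

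Since most of these receptors are built of more than 1 chain, the lower chain of each was compared on the per-kilobase scale. Whether that chain limits the receptor was not tested. The length of a gene here is that of all its annotated exons merged, so the order of chains with close levels can depend on it. For the IL-6 receptor that was Il6ra, at 19.8, 14.1 and 7.13 CPM per kb in CD301b, SIRPa and XCR1. For the IL-10 receptor it was Il10rb at 12.1, 16.7 and 9.08 CPM per kb. For the IL-1 and IL-36 receptors the lower chain was Il1rap in CD301b (1.36 CPM per kb) and SIRPa (1.19), and in XCR1 the binding chain instead, Il1r1 at 0.0730 and Il1rl2 at 0.0496 CPM per kb. For the IL-12 and IL-23 receptors it was Il12rb1 in every population, at 0.0839, 0.285 and 0.136 CPM per kb. Above it stood both Il12rb2 (6.81, 7.66 and 7.55) and Il23r (0.645, 3.97 and 1.12). The Il12rb2 level may hold reads of Serbp1, which cannot be told apart where the 2 genes overlap (above). By mean level, the IL-21 receptor was the 1 common gamma chain receptor here whose lower chain was not the same in all populations. Il21r was lower in CD301b and SIRPa (16.7 and 31.3 CPM per kb). In XCR1 the means lay close, with Il2rg at 13.4 and Il21r at 14.65. Which of them was lower changed between XCR1 libraries, so a switch of the lower chain in XCR1 is not shown. These are transcript levels and say nothing of protein on the surface.

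RefSeq gives 35 starts for 30 of the 37 genes. The STAT motif was in 5 of these 35 windows (Il12rb2, Il18r1, Il1r2, Il31ra and Il7r) and in 7.02% of 32851 windows of the same length over all genes. The AP-1 motif was in 5 as well (Il13ra2, Il17rb, Il20ra, Il22ra1 and Il5ra, against 6.75% of all). The PU.1 motif was in 1, Il18rap (2.44% of all), the ETS-IRF composite in 1, Il6st (2.30%), and the IRF motif in 0 (2.98%). A match describes letters and is not a bound site.

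The list of other receptor genes was mixed. It held partner chains under other names, interferon receptor chains, the growth factor receptors Csf1r, Kit and Flt3, and Cd74. Of 16 tested, 3 were higher and 2 lower in CD301b than in SIRPa, 5 higher and 3 lower in CD301b than in XCR1, and 8 higher and 2 lower in SIRPa than in XCR1, with median log2 fold changes of -0.06, 0.24 and 0.24. Lifr (above) and Csf1r, the receptor of the IL-34 cytokine, were among the higher ones against XCR1, with Csf1r at 638 ± 54.3, 672 ± 33.3 and 19.3 ± 6.27 CPM in CD301b, SIRPa and XCR1 (5.04 ± 0.21, adjusted p = 1.40e-09, and 5.12 ± 0.21, adjusted p = 1.18e-09). Those lower than in XCR1 were Kit and Flt3 in both comparisons and Ifnlr1 in CD301b, so most of these were not partner chains. Kit, the stem cell factor receptor, stood at 57.4 ± 5.55, 98.8 ± 10.9 and 244 ± 17.2 CPM (-2.09 ± 0.12, adjusted p = 3.46e-11, and -1.30 ± 0.12, adjusted p = 3.94e-08, against XCR1).

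Of the 4 JAK kinases, Jak1, Jak2 and Jak3 were higher than in XCR1 in CD301b and in SIRPa and Tyk2 was lower, with medians of 0.78 and 0.56 on the log2 scale. Jak2, which is bound by the receptors of IL-3, IL-12 and IL-23 among others, was also higher in CD301b than in SIRPa, at 966 ± 57.3, 747 ± 45.7 and 503 ± 24.9 CPM in CD301b, SIRPa and XCR1 (0.37 ± 0.09 for CD301b over SIRPa, adjusted p = 0.0206). Of 7 STAT genes, 3 were higher and 2 lower in CD301b than in XCR1, and 3 higher and 1 lower in SIRPa than in XCR1 (medians 0.16 and 0.08). Stat5b was among the higher ones, at 127 ± 7.36, 106 ± 6.17 and 72.8 ± 6.46 CPM in CD301b, SIRPa and XCR1.

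Among 15 feedback genes of JAK-STAT signalling, 6 were higher and 2 lower in CD301b than in XCR1, and 6 were higher and 1 lower in SIRPa than in XCR1 (medians 0.22 and 0.29). For CD301b against SIRPa, edgeR called 0 of them (2 at an unadjusted p under 0.05) and DESeq2 and limma-voom 1 each. Socs3, which binds gp130 and blocks its signalling, was among the higher ones, at 95.2 ± 10.8, 90.2 ± 11.9 and 8.18 ± 3.04 CPM in CD301b, SIRPa and XCR1, or 3.54 ± 0.22 (6.49e-10) for CD301b over XCR1 and 3.46 ± 0.22 (8.22e-10) for SIRPa over XCR1. The phosphatase genes Ptpn1 and Ptpn6 were higher as well, by 1.60 ± 0.10 and 1.04 ± 0.11 in CD301b over XCR1 (1.60e-10 and 4.68e-07) and by 1.58 ± 0.10 and 1.05 ± 0.11 in SIRPa over XCR1 (2.04e-10 and 4.16e-07).

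Of 17 genes of IL-1 family signalling, 6 were higher and 2 lower in CD301b than in XCR1, and 6 higher and 1 lower in SIRPa than in XCR1, with medians of 0.34 and 0.14 on the log2 scale. In the comparison of CD301b with SIRPa, edgeR called 0 (3 at an unadjusted p under 0.05), DESeq2 0 (2) and limma-voom 0 (3). Casp1, which cleaves the precursors of IL-1β and IL-18, stood at 40.5 ± 3.54, 29.1 ± 3.10 and 9.26 ± 3.04 CPM in CD301b, SIRPa and XCR1. It was higher by 2.13 ± 0.23 in CD301b over XCR1 (adjusted p = 4.44e-07) and 1.65 ± 0.23 in SIRPa over XCR1 (1.11e-05). Of 9 genes of IL-17 signalling, 4 were higher and 1 lower in CD301b than in XCR1, and 5 higher and 1 lower in SIRPa than in XCR1 (medians 0.31 and 0.57). Cebpb, a target of the pathway, was among the higher genes at 21.4 ± 1.35, 21.1 ± 5.57 and 3.21 ± 1.45 CPM, and Traf3ip2, which encodes the adaptor Act1, was the lower one at 5.54 ± 0.177, 7.02 ± 1.78 and 15.4 ± 6.43 CPM. Between CD301b and SIRPa, edgeR called 0 of the 9 (0 at an unadjusted p under 0.05), DESeq2 0 (1) and limma-voom 0 (1).

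Receptor ectodomains can be shed by membrane proteases. Of 7 genes of shedding and trafficking, 3 were higher than in XCR1 in each comparison, namely Adam10, Adam17 and Rhbdf2 (medians 0.73 and 1.02). Of the 7, edgeR called 0 in CD301b against SIRPa (0 at an unadjusted p under 0.05), DESeq2 0 (1) and limma-voom 0 (1). Adam17, which cleaves IL-6Rα, stood at 207 ± 25.8, 235 ± 35.4 and 110 ± 5.61 CPM in CD301b, SIRPa and XCR1, or 0.91 ± 0.12 for CD301b over XCR1 (adjusted p = 9.68e-06) and 1.09 ± 0.12 for SIRPa over XCR1 (8.51e-07).

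Among 44 genes of ligands and related proteins 13 were tested. Of the 44, 16 had 0 counts in every library, Il9 and the IL-33 gene Il33 among them. Against SIRPa, CD301b had 3 lower, namely Il12b, Il15 and Il18bp, whose product binds IL-18 and is not a receptor ligand. In CD301b against XCR1 4 were higher and 4 lower, and in SIRPa against XCR1 4 were higher and 3 lower. The medians of the 3 comparisons were -0.16, -0.59 and 0.58. Il1b, which encodes the IL-1β bound by Il1r1 and Il1r2, was higher than in XCR1 in both, at 88.5 ± 8.75, 68.9 ± 3.38 and 9.85 ± 2.69 CPM in CD301b, SIRPa and XCR1 (3.17 ± 0.18, adjusted p = 2.78e-11, and 2.81 ± 0.18, adjusted p = 1.71e-10). Il12b, the subunit shared by IL-12 and IL-23, was lower in both, at 11.3 ± 1.74, 18.2 ± 0.831 and 146 ± 30.6 CPM (-3.69 ± 0.18, adjusted p = 1.78e-12, and -3.01 ± 0.17, adjusted p = 2.97e-11). Il23a, the other IL-23 subunit, had 0 counts in CD301b, 2 in SIRPa and 0 in XCR1, and the IL-10 gene had 0, 3 and 0.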

How the data were processed

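RNA was measured in 9 libraries of sorted thymic dendritic cells, prepared with a stranded total-RNA kit and sequenced on a NextSeq, per the labels' protocols. The deposited table holds whole-number read counts per gene symbol. FastQC, Trimmomatic, HISAT2, SAMtools, featureCounts, edgeR and the mm10 build are named in the submitters' processing notes, without versions. No source used here gives the strand setting of the counting. A second deposited table of log2 values by the authors was used only to check the count columns: over 151 values of 30 chains with at least 100 counts, it differed from log2 CPM by a median of 0.112 to 0.118 per library. Symbols turned into dates by a spreadsheet (24 names, 0.124 to 0.187% of counts) were left out.

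Counts were analysed in R 4.3.3 with edgeR 4.0.16 (TMM, filterByExpr with a minimum count of 10, robust quasi-likelihood fit over all 9 libraries, 15417 genes, two-sided tests, Benjamini-Hochberg adjustment over all genes, threshold 0.05). Each SE is the fold change over the square root of F. CPM are TMM-normalised. Lengths and positions are from GENCODE's GRCm38 annotation, with all exons of a gene merged for its length. Intervals and floors (3 counts) are at 95% where an interval is given and cover counting error only. Alternatives were DESeq2 1.42.0, limma-voom (limma 3.58.1), other scalings and filters, fits of 6 libraries, a replicate block and leaving out each library. Ratios to XCR1 replicates 1 and 2 alone were added after the data were seen. Counts simulated with known changes were tested with the same code. All 37 chains appear in the text, with values per library for those called at a log2 fold change of 1 or more in either direction and a mean of 1 CPM or more, and for the most abundant per kilobase of each family. From lists by role, the called genes of lowest adjusted p were named, 3 at most. Crlf2, Csf2rb, Csf2rb2, Osmr, Traf3ip2 and the ligands at 0 were named after their values were seen. The members and lists were chosen with earlier results of these data known. The design text mentions 3 mice. Nothing ties libraries to animals, so each p-value measures only how these libraries spread, which may be technical.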

Additional observations from a re-analysis of the deposited data

How the results depend on the processing

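No call among the 37 chains turned its direction under any alternative. Counts of chains that were higher against XCR1 kept within 1.5 times, at 11 to 16 in CD301b (12 in the main analysis, 16 without XCR1 replicate 3) and 14 to 19 in SIRPa (18 in the main analysis). Between CD301b and SIRPa the counts moved more. The 2 higher chains became 4 with limma-voom, 4 with only the 6 libraries compared, 1 with a replicate block and 1 to 4 when 1 library was left out. The 3 lower chains became 6 with limma-voom, 5 with no filter on low counts, 6 with only the 6 libraries compared, 1 with a replicate block and 1 to 4 when 1 library was left out. Over all genes, the 660 calls between CD301b and SIRPa became 328 to 813 without 1 library, with the fewest without SIRPa replicate 1. The 0 lower chains in SIRPa against XCR1 became 0 to 1, with Il17rd called without SIRPa replicate 1. Libraries of the same number were not shown to be paired (correlations of their deviations from 0.0031 to 0.0413), and the block ended the calls between CD301b and SIRPa for Il9r (adjusted p = 0.172), Il6ra (0.0703) and Il23r (0.0696), and those against XCR1 for Il20rb in CD301b (0.0700) and Il22ra2 in SIRPa (0.0775). The cause of these changes was not tested. With 3 libraries a population, the chains with a mean under 3 CPM in every population had SEs above 1 on the log2 scale, so small differences there were not detectable at this depth.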
